A study of Mus musculus with 14 samples.

Results

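The constitutive proteasome was read at the RNA level through the 34 genes whose symbols run from Psma1 to Psma7, Psmb1 to Psmb7 and Psmc1 to Psmc6, or are Psmd followed by a number, out of 40840 genes in the count table. All 34 passed the filter on low counts, as did 14893 genes in all. The 26S proteasome is the main ATP-dependent protease of the cytosol and nucleus. Its barrel-shaped 20S core holds the proteolytic sites, and its 19S cap binds proteins tagged with ubiquitin, removes the tag, unfolds the protein and threads it into the core. In neurons, including retinal ganglion cells, it sets the turnover of short-lived regulators, synaptic proteins and damaged proteins. Here 14 genes encode the core (7 Psma genes for the outer alpha rings and 7 Psmb genes for the inner beta rings) and 20 were counted with the cap (6 Psmc ATPases and 14 Psmd genes). Psmd5, Psmd9 and Psmd10, 3 of the Psmd genes, encode chaperones that help the cap assemble and leave the finished particle.

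The libraries were made from total RNA of eyes, labelled as retinal ganglion cells (RGC), of female mice aged 7 to 8 weeks. Naive mice served as controls (4 libraries), and EAE mice were sampled before symptoms (called pre here, 4 libraries), when symptoms began (onset, 4) and when disease peaked (1). EAE, experimental autoimmune encephalomyelitis, is a mouse disease in which immune cells attack myelin, widely studied in place of multiple sclerosis. The labels list 14 samples, and the other peak sample was not analysed here. They give no strain, immunisation, sort or gate. Nor do they tie replicates to animals, and p-values measure only the spread between these libraries, which may be technical.

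Gene totals ran from 3308627 to 6590972 counts in naive, 2910710 to 6168741 in pre and 2596705 to 6413329 at onset, and the peak library held 7641214, the most of the 13. The ganglion cell markers Rbpms, Slc17a6 and Pou4f1 were detected in all 13 libraries, while Pou4f2 was at 0 counts in 3, Pou4f3 in 4 and Isl2 in 1. Over the whole list of 11 ganglion cell markers the mean level ran from 2.43 log2 CPM (counts scaled to a common library total) in the peak library to 5.59 in pre 3. Markers of other retinal cells were present as well, with mean levels of 7.43 to 8.23 log2 CPM for 7 amacrine markers, 4.62 to 8.51 for 5 Muller glia markers and 2.60 to 6.82 for 10 microglia and macrophage markers. The 14 rod photoreceptor markers, none of them at 0 in any library, ran from 3.40 in naive 1 to 7.93 in naive 5, and this mean is called the rod index. In bulk RNA, fewer cells of a type and less RNA per cell cannot be told apart.

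The regions just upstream of the subunit genes were read for short motifs, and whether any motif bears on their levels was not tested. RefSeq promoter windows on GRCm38.p6, from 250 bases before to 50 bases after a gene's start, were found for 28 of the 34 genes. Psmb1, Psmb2, Psmb7, Psmc3, Psmd3 and Psmd7 were without one. Psma6 and Psmc2 had an additional window each, which gave 30 windows for the members. A gene was counted where any of its windows matched, whereas the background counts each window. The antioxidant response element (searched as TGACNNNGC on either strand) is the motif bound by Nfe2l1 and Nfe2l2, transcription factors known to drive proteasome genes. It was found in 5 of the 28 genes (17.9%), against 12.4% of 32851 promoters in the table. Windows are shown for Psmb5 and Psmb6, proteolytic subunits with a match near the start, for Psmd9, an assembly chaperone with a match, and for Psmd10, the member with the widest departure from naive in each EAE stage, which has none. Capitals mark matches to the antioxidant response element and to the CCAAT box (CCAAT, or ATTGG where it lies on the other strand), and each window reads 5′ to 3′ on the strand of its gene.
Psmb5 (chr14:54617946-54618245, minus strand): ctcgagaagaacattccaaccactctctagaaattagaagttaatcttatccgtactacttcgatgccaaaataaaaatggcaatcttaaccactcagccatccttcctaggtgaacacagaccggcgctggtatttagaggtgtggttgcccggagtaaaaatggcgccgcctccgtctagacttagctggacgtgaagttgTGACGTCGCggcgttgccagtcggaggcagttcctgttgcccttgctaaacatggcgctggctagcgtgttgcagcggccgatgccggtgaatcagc
Psmb6 (chr11:70525107-70525406, plus strand): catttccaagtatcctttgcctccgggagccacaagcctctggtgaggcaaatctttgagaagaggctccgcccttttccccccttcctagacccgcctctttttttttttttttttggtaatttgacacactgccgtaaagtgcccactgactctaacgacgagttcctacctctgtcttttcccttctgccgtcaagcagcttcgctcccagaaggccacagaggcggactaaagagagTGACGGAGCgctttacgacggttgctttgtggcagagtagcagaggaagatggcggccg
Psmd9 (chr5:123227940-123228239, plus strand): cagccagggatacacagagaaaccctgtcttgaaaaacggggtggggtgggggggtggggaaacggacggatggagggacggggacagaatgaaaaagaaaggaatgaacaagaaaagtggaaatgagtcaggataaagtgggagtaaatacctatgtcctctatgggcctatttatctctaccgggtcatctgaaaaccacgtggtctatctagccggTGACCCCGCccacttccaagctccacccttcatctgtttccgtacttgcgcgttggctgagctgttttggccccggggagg
Psmd10 (chrX:140956662-140956961, minus strand): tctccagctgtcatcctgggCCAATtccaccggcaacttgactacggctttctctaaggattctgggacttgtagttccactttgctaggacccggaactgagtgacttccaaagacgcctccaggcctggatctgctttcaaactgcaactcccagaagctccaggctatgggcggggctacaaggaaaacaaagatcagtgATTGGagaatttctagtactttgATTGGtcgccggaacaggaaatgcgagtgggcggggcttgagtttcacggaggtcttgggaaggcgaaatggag

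The element began 47 bases before the start in Psmb5, 9 before it in Psmb6 and 31 before it in Psmd9, each time on the strand of the gene. The remaining matches lay on the other strand, 227 bases before the start of Psmc6, an ATPase, and 247 before that of Psmd12, a lid subunit. The CCAAT box was found in 11 of the 28 genes (39.3%, against 37.4% of all promoters) and 3 times in Psmd10. The GC box (GGGCGG, either strand) was found in 18 (64.3%, against 35.7%), and the E-box CACGTG in 2 (7.14%, against 7.15%). The GC content of the members' windows had a median of 55.8%, against 52.7% over all promoters, a value given because the GC box is made of those letters. Counted per window like the background, each of these member shares would be lower, so the small excess of the CCAAT box is not read as one. These shares describe letters in a window and carry no test.

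No subunit gene passed the test in any comparison between stages. Each gene was tested with edgeR's quasi-likelihood F test in 1 fit over all libraries, with p-values adjusted over all 14893 genes (Benjamini-Hochberg, threshold 0.05). By that rule 0% of all genes were called for pre, 0% for onset and 0.161% for the peak, each against naive, and 0% for onset against pre, and none of the 34 members was among them. The smallest adjusted p of a member in edgeR was 0.807 for pre, 0.785 for onset, 0.204 for the peak and 0.734 for onset against pre. At an unadjusted p under 0.05, edgeR gave 2 members in pre (background 5.59% of all genes, members 5.88%), 3 at onset (background 5.96%, members 8.82%), 4 at the peak (background 9.56%, members 11.8%) and 0 in onset against pre (background 6.82%). DESeq2 and limma-voom called no member either. All statements on single genes below are therefore levels and fitted differences that did not pass the test.

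The fitted differences were small and mostly on one side. Against naive, 21 of 34 members were fitted higher in pre (median log2 fold change 0.05), 30 at onset (median 0.10) and 33 at peak (median 0.23). Over all tested genes the medians were -0.02, -0.01 and -0.03, with 45.7%, 47.3% and 46.5% of genes fitted higher. In onset against pre, 27 members were fitted higher, with a median of 0.05, against a median of 0.01 and 52.8% over all genes. The 3 comparisons with naive share their control libraries, so their signs are not independent of each other. These counts moved with single libraries. Without naive 1, 28 members were fitted higher in pre and 32 at onset, and 8, 10 and 12 members had an unadjusted p under 0.05 in pre, onset and peak in edgeR, with none past the adjusted threshold. Without naive 5 these unadjusted counts were 0, 1 and 2. With 1 library left out the median ran from 0.02 (without naive 5) to 0.11 (without naive 1) in pre, and from 0.07 (without naive 4) to 0.16 (without naive 1) at onset. Without the 4 libraries of highest rod index (naive 4, naive 5, pre 4 and onset 3), 13 were fitted higher in pre (median -0.05), 19 at onset (median 0.02) and 29 at peak (median 0.13), and the unadjusted counts were 0, 1 and 1. In that fit naive 1 and naive 2 were the only naive libraries. With the rod index as a covariate, 19 were fitted higher in pre (median 0.03), 30 at onset (0.10) and 33 at peak (0.25). Once each library's trend over exon length was removed, 27 were fitted higher at the peak, with a median of 0.14.

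**Figure D1:**
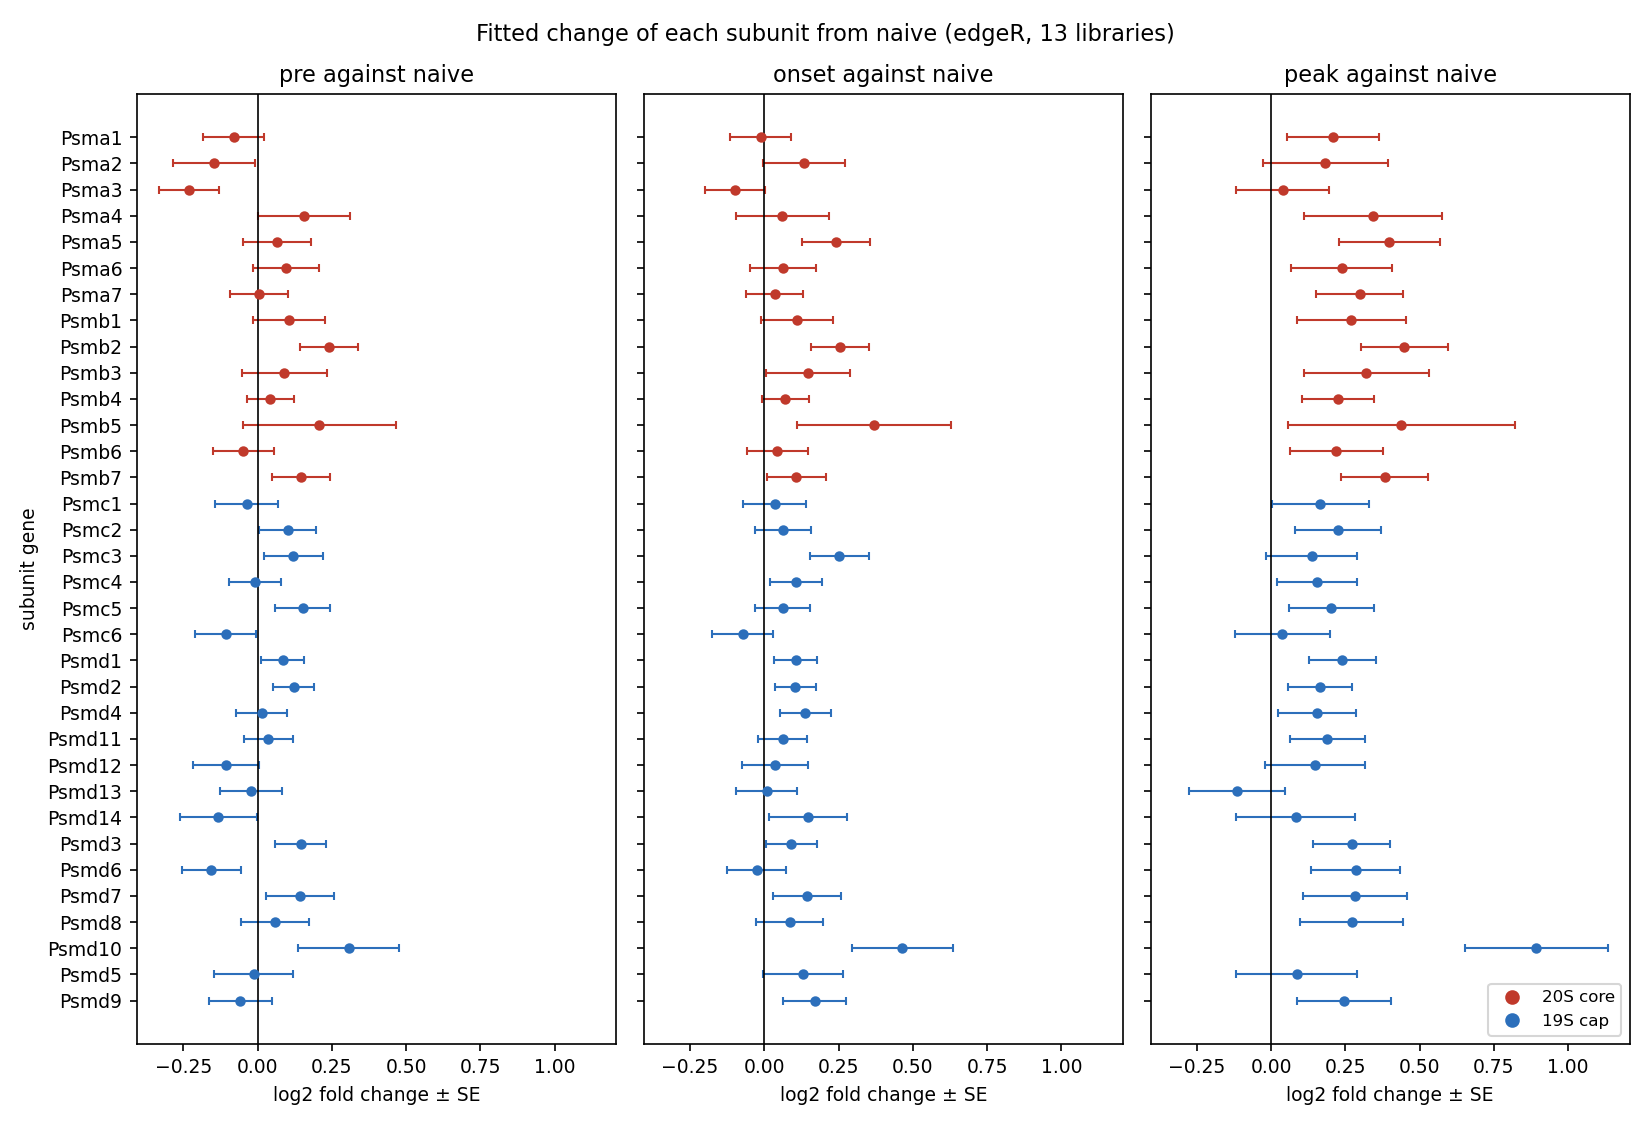
Fitted log2 fold change (x axis) of each of the 34 subunit genes (y axis, grouped by role) in pre, onset and peak against naive. Points are the edgeR fit over 13 libraries and bars an SE derived from its F statistic. Core genes are in red and cap genes in blue. Most points lie to the right of 0 at onset (30 of 34) and at peak (33 of 34), and none passed the adjusted threshold.

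The summed level of the members shows where the libraries differed. It was 2442 CPM in naive 1 and 2108, 2055 and 2020 in naive 2, 4 and 5. In pre libraries 1 to 4 it was 2237, 2364, 2071 and 2175, at onset 2270, 2297, 2250 and 2350, and at the peak 2489. The onset libraries lay within 100 CPM of each other and above 3 of the 4 naive libraries, but below naive 1. All pre and onset libraries thus fell inside the naive range, and only the peak library lay above it.

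Naive 1 set the upper end of that range. It was the highest naive library for 30 of the 34 members (88.2%), against 29.9% of all tested genes, and naive 5 was the lowest for 14. The same library had the lowest rod index (3.40, against 4.24, 7.38 and 7.93 in naive 2, 4 and 5) and the lowest mean of the microglia and macrophage markers (2.60 log2 CPM). Over all 13 libraries, the mean level of the members had a Pearson r of -0.35 with the rod index, -0.09 with the microglia markers and 0.23 with the gene total. These correlations describe 13 libraries that share stage, depth and cell make-up, and the part of the rod content in the counts above was not tested.

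The core and the cap had the same order of stage means. Summed over the 14 core genes the level was 628 ± 54.7 CPM in naive (SD, n = 4), 638 ± 36.2 in pre (n = 4), 665 ± 19.4 at onset (n = 4), against 754 at peak. Summed over the 20 cap genes it was 1528 ± 143 CPM in naive, 1574 ± 86.6 in pre, 1627 ± 25.6 at onset, against 1735 at peak. Naive 1 alone reached 708 CPM in the core and 1734 in the cap, so in the cap it stood level with the peak library. These sums are not per length, so the larger sum of the cap says nothing of its abundance relative to the core.

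**Figure D2:**
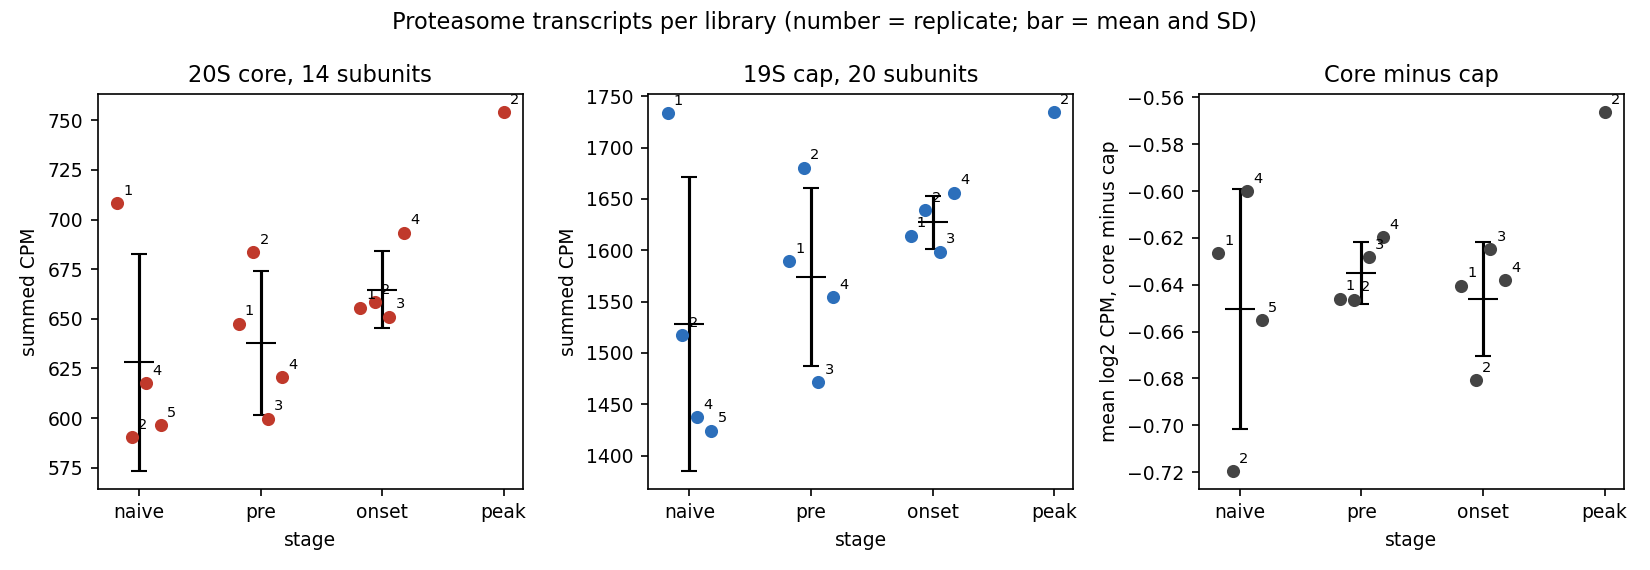
Summed CPM of the 14 core genes (left) and the 20 cap genes (middle), and mean log2 CPM of the core minus that of the cap (right), by stage. Each point is 1 library with its replicate number, and bars give the mean and SD of a stage with 4 libraries. The naive libraries spread from 590 to 708 CPM in the core, the onset libraries from 651 to 693, and the peak library lies at 754.

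The balance between both parts stayed narrow. The mean log2 CPM of the core minus that of the cap was -0.65 ± 0.05 in naive, -0.64 ± 0.01 in pre and -0.65 ± 0.02 at onset (SD, n = 4 each), and -0.57 at peak. Naive libraries ran from -0.72 to -0.60, pre from -0.65 to -0.62 and onset from -0.68 to -0.62, so these 3 stages overlapped. The peak library lay above all 12 others, and since it is a single library no spread at the peak can be given. Without the 3 assembly chaperones the peak library was again the highest, at -0.82, with -0.94 ± 0.06 in naive, -0.91 ± 0.02 in pre and -0.91 ± 0.02 at onset. Taken as medians over members, however, the difference was -0.70 at the peak, inside the naive range of -0.92 to -0.66.

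By class, 10 of 14 core genes were fitted above naive in pre, 12 at onset and 14 at peak, with median log2 fold changes of 0.08, 0.09 and 0.28. For the cap the counts were 11, 18 and 19 of 20, with medians of 0.03, 0.10 and 0.18. The 2 classes thus had like medians at onset, and a difference of stage effect between them was not tested.

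The proteolytic sites lie on Psmb5 (chymotrypsin-like), Psmb6 (caspase-like) and Psmb7 (trypsin-like). Psmb5 stood at 26.4, 15.2, 14.4 and 11.2 CPM in naive 1, 2, 4 and 5, at 15.3, 19.9, 23.4 and 18.4 in pre 1 to 4, at 27.3, 17.9, 25.5 and 15.7 in onset 1 to 4 and at 22.5 at the peak. Its 3 lower naive values lay below every EAE value, but naive 1 was among the highest of all, so the stages overlapped. The fitted log2 fold changes of Psmb5 were 0.21 ± 0.26 (SE) in pre, 0.37 ± 0.26 at onset and 0.44 ± 0.38 at peak. Without naive 5 they were 0.05, 0.21 and 0.26, and without naive 1 they were 0.50, 0.66 and 0.73. Psmb5 varied more between replicates than any other member.

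Psmb6 stood at 64.1, 57.5, 54.5 and 49.0 CPM in naive, at 50.2, 60.03, 49.6 and 56.9 in pre, at 64.8, 54.1, 54.7 and 58.0 at onset and at 65.3 at the peak. Naive, pre and onset overlapped, and the peak library lay just above the highest naive one. The log2 fold changes of Psmb6 were -0.05 ± 0.10, 0.04 ± 0.10 and 0.22 ± 0.16 (SE) in pre, onset and peak. Psmb7 stood at 56.3, 43.8, 43.2 and 43.4 CPM in naive, 54.4, 53.0, 46.8 and 51.6 in pre, 48.9, 52.6, 51.3 and 47.8 at onset and 60.7 at peak. Here 3 naive libraries lay below all 9 EAE libraries while naive 1 lay above all of them but the peak library. Its log2 fold changes were 0.15 ± 0.10 in pre, 0.11 ± 0.10 at onset and 0.38 ± 0.15 at peak (SE), the last with an unadjusted p of 0.0224 and an adjusted p of 0.408 in edgeR. Exons of Psmb7 overlap those of Nek6 on the other strand over 11.8% of their bases, and the strand setting of the counting was not given in the sources used here.

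Under inflammation the interferon-inducible Psmb8, Psmb9 and Psmb10 can replace Psmb5, Psmb6 and Psmb7 in newly built cores, which gives the immunoproteasome. Psmb8 stood at 1.26 to 2.58 CPM in naive, 1.32 to 2.79 in pre, 1.21 to 9.90 at onset and 4.90 at peak. Per kilobase of exon, averaged over the 13 libraries, Psmb8 had 0.900 CPM against 21.7 for Psmb5, Psmb9 had 0.329 against 30.4 for Psmb6, and Psmb10 had 3.87 against 14.7 for Psmb7. Each inducible gene thus stood below its constitutive counterpart. To follow the inducible genes across libraries, their summed level was set against that of the constitutive genes without regard to length. It was 5.14 to 9.08 per 100 in naive, 5.69 to 9.92 in pre, 6.03 to 17.4 at onset and 9.56 at peak. The onset log2 fold changes were 1.38 ± 0.54 for Psmb8, 1.96 ± 0.79 for Psmb9 and 0.56 ± 0.25 for Psmb10 (SE), with adjusted p-values of 0.794, 0.794 and 0.813 in edgeR. These rest on few counts: Psmb9 had 1, 2, 0 and 7 in naive and 8, 2, 15 and 9 at onset. Psmb8 had 4 to 17 counts in naive and 5 to 38 at onset. Onset 1 and onset 3 held the highest summed levels of the inducible genes, 18.2 and 22.9 CPM. Onset 3 had the highest microglia and macrophage marker mean of the 13 libraries (6.82 log2 CPM), whereas that of onset 1 (4.84) lay below those of naive 5 (5.08), pre 3 (5.98) and pre 4 (6.25). Onset 1 had the highest T cell marker mean (1.55), followed by naive 1 (1.01) and naive 2 (0.94). All 6 T cell markers were at 0 counts in some libraries, and none exceeded 12 counts in any. The part of either cell type was not tested. The thymus form Psmb11 had at most 5 counts in a library, and the testis form Psma8 had 0 counts in all 13, which allows up to 0.0495 CPM over the libraries together (3 counts, counting error only).

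**Figure D3:**
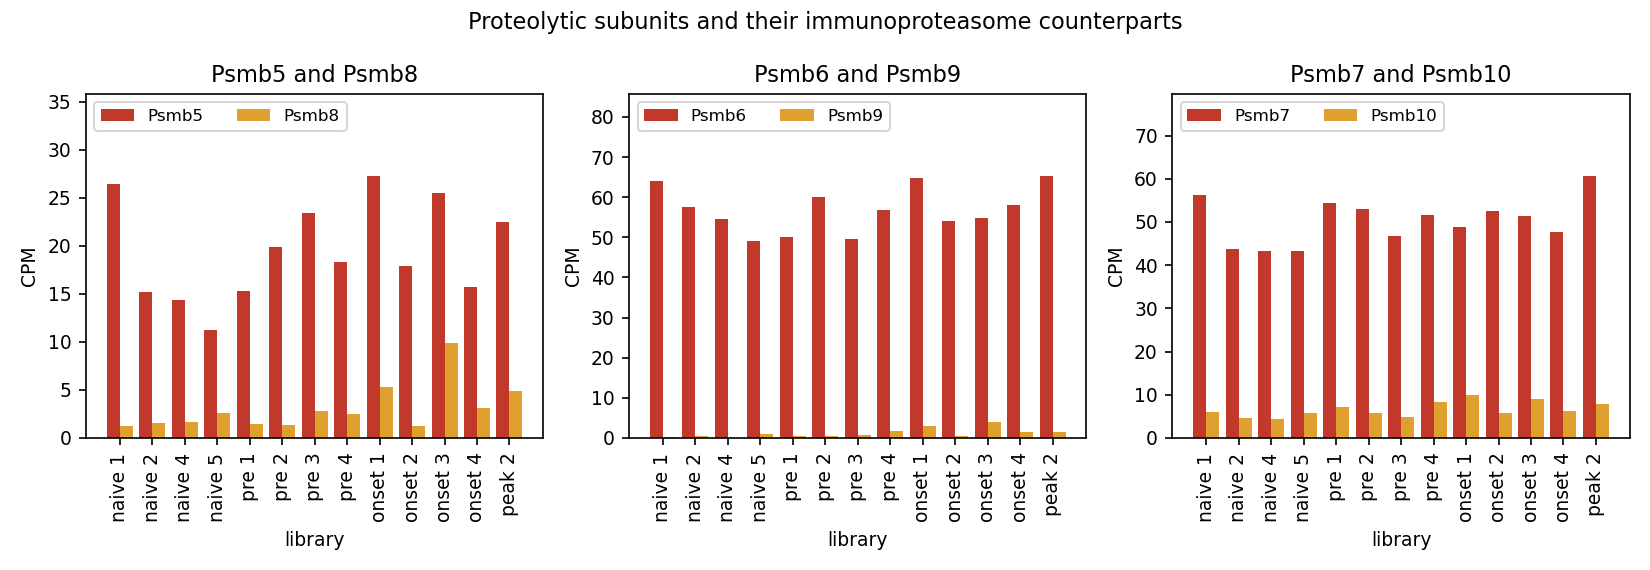
CPM (y axis, from 0) of the 3 constitutive proteolytic subunit genes in red and of their immunoproteasome counterparts in yellow, in each of the 13 libraries (x axis). Psmb8 reached 9.90 CPM in onset 3, where Psmb5 stood at 25.5, and each yellow bar is lower than the red bar beside it (bars are not per length).

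Among the other beta subunits, which carry no proteolytic site, Psmb2 had the smallest p in all 3 comparisons with naive. It stood at 33.95, 39.1, 37.0 and 32.9 CPM in naive, 39.1, 42.6, 44.4 and 42.8 in pre, 47.8, 36.9, 41.7 and 44.4 at onset and 48.7 at peak. Every pre library lay above every naive one, the lowest of them by a margin of under 0.1 CPM, whereas onset 2 lay inside the naive range. No other member had pre and naive libraries that did not overlap, so this held for 2.94% of members. Over all tested genes, 1.36% had all pre libraries higher than naive and 1.62% all lower. The log2 fold changes of Psmb2 were 0.24 ± 0.10 in pre, 0.25 ± 0.10 at onset and 0.45 ± 0.15 at peak (SE), with adjusted p-values of 0.807, 0.785 and 0.302 in edgeR. All 4 genes of this class were fitted higher at each stage.

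In the alpha ring, which gates the entry to the core, Psma3 and Psma5 stood out. Psma3 stood at 56.3, 57.0, 67.4 and 68.2 CPM in naive, 55.0, 59.5, 49.2 and 48.1 in pre, 56.1, 56.0, 55.3 and 64.9 at onset and 64.1 at peak. It was the member with the lowest fold change in pre, -0.23 ± 0.10 (SE, adjusted p = 0.807 in edgeR), and in onset against naive, -0.10 ± 0.10. Psma3 was thus one of the few members for which naive 1 was not the highest naive library.

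Psma5 stood at 35.5, 30.2, 28.3 and 24.4 CPM in naive, 28.4, 34.2, 31.4 and 29.2 in pre, 35.6, 34.7, 34.4 and 34.7 at onset and 38.8 at peak. Its onset libraries were the tightest of its stages, with 34.9 ± 0.541 CPM (SD, n = 4), and lay above all pre libraries, by under 1 CPM at the closest. No other member had onset libraries all above pre (background 1.98%). Against naive the log2 fold change of Psma5 was 0.24 ± 0.11 at onset and 0.40 ± 0.17 at peak (SE, adjusted p = 0.813 and 0.476 in edgeR). In onset against pre the highest member was another alpha subunit, Psma2, at 0.28 ± 0.14, and the lowest was Psma4, at -0.09 ± 0.15 (SE). Over the 7 alpha genes, 4 were fitted higher in pre, 5 at onset and 7 at peak.

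The 6 Psmc ATPases form the ring that unfolds substrates and pushes them into the core. Psmc3 stood at 103.7, 91.3, 78.2 and 82.0 CPM in naive, 97.4, 104.6, 81.0 and 101.9 in pre, 103.9, 105.0, 107.9 and 105.7 at onset and 97.5 at peak. Each onset library exceeded each naive one, though naive 1 was within 1 CPM of the lowest onset library. Psmc3 was the only member with onset and naive libraries apart (2.94% of members). Over all tested genes, 1.39% had all onset libraries higher than naive and 1.69% all lower. The onset log2 fold change of Psmc3 was 0.25 ± 0.10 (SE, adjusted p = 0.794 in edgeR). Of its exon bases, 8.25% overlap Slc39a13 on the other strand. Psmc5 had the smallest p of the class in pre, at a log2 fold change of 0.15 ± 0.09 (SE), with 113.5, 99.2, 89.0 and 93.2 CPM in naive and 105.3, 117, 96.7 and 118.6 in pre, which overlapped. Psmc2 had the smallest p at the peak, at 0.23 ± 0.15 (SE), with 87.0 CPM against 90.9, 72.4, 66.2 and 68.8 in naive, so naive 1 lay above the peak library. Of the ATPases, 3 were fitted higher in pre, 5 at onset and 6 at peak.

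In the base, Psmd1 and Psmd2 are large scaffold subunits and Psmd4 is a ubiquitin receptor. All 3 were fitted higher at each stage, but by little: the smallest p of the class was that of Psmd2 in pre (0.12 ± 0.07), Psmd4 at onset (0.14 ± 0.09) and Psmd1 at the peak (0.24 ± 0.11, SE). Psmd4 stood at 84.9, 79.0, 71.8 and 73.8 CPM in naive and 95.2, 89.0, 78.2 and 78.6 at onset, which overlapped. Psmd1 stood at 136, 115, 120 and 127 CPM in naive and at 147 at the peak, so the peak library was above all naive ones.

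The lid holds the deubiquitinase Psmd14 and structural subunits around it. Of its 8 genes, 4 were fitted higher in pre, 7 at onset and 7 at peak. Psmd3 stood at 116, 100.3, 99.4 and 95.8 CPM in naive, 110.7, 104.3, 116 and 123.6 in pre, 121, 109, 105 and 103 at onset and 124 at peak. It had the smallest p of the lid genes in pre (log2 fold change 0.15 ± 0.09, SE) and at the peak (0.27 ± 0.13), although its fold change at the peak was not the highest of the lid. Psmd7 stood at 89.3, 74.5, 63.6 and 62.5 CPM in naive and 74.7, 80.7, 76.4 and 86.8 at onset, which overlapped, and had the smallest p of the lid at onset (0.14 ± 0.12, SE). Psmd13 was the only member fitted lower at the peak, at -0.12 ± 0.16 (SE, adjusted p = 0.854 in edgeR), with 42.3 CPM against 49.4, 48.0, 41.8 and 44.6 in naive 1, 2, 4 and 5. That peak value lay inside the naive range, and 10.1% of the exon bases of Psmd13 overlap Sirt3 on the other strand.

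Psmd10, known as gankyrin, is a chaperone of base assembly and had the highest fold change of all members at each EAE stage. It stood at 7.86, 6.56, 9.36 and 8.04 CPM in naive, 10.7, 9.21, 10.8 and 8.81 in pre, 11.8, 11.4, 8.86 and 11.98 at onset and 14.8 at peak. The upper end of naive, 9.36 CPM in naive 4, lay above 2 pre libraries and 1 onset library. The log2 fold change of Psmd10 was 0.31 ± 0.17 in pre, 0.46 ± 0.17 at onset and 0.89 ± 0.24 at peak (SE), with adjusted p-values of 0.807, 0.785 and 0.204 in edgeR. Its peak value was the highest of the 13 libraries. The other chaperones, Psmd5 and Psmd9, were both fitted lower in pre and higher at onset and at peak. Psmd9 overlaps the non-coding gene Gm26745 on the other strand over 25.5% of its exon bases.

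**Figure D4:**
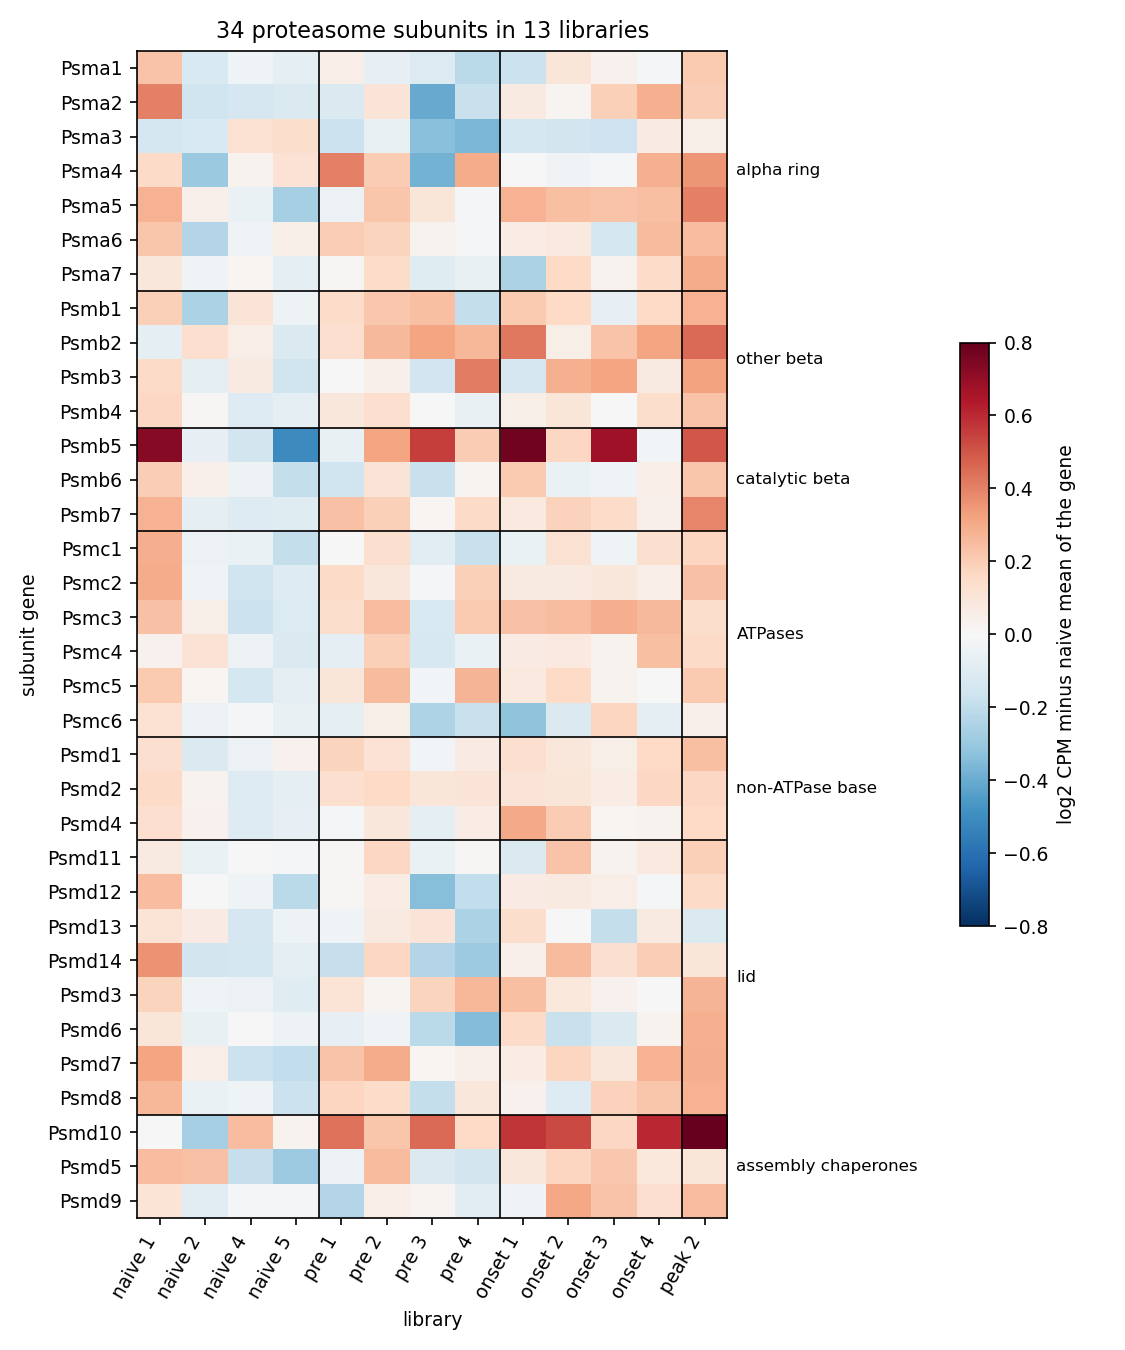
Level of each of the 34 genes (y axis, by role) in each library (x axis), as log2 CPM minus the mean of the gene over the 4 naive libraries. Red is above and blue below that mean, and lines part the stages and the roles. Naive 1 and peak 2 are red for most genes, and Psmd10 is at its reddest in the peak library, at 14.8 CPM.

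The peak library lay above the naive ones for a larger share of members than of all tested genes. It lay above all 4 naive libraries for 21 of the 34 members (61.8%), against a background of 21.8% of tested genes. It lay below all of them for none, against a background of 22.6%. Of the 13 libraries it was the highest for 13 members (38.2%), against 8.85% of tested genes, while naive 1 was the highest for 7 (20.6%, against 11.7%). The 21 members were 10 core genes, among them Psmb2, Psmb6 and Psmb7, and 11 cap genes, among them Psmd1, Psmd3 and Psmd10. Members vary together, so these are not 21 separate observations, and they rest on 1 library. That library also had the highest gene total and the lowest share of reads outside annotated genes (22.8%, against up to 27.6% in the others), and the part of either was not tested. The fit assumed that it varies like the other stages.

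The members were mostly steadier between replicates than the median gene in their range of levels. The median SD of log2 CPM within stages was 0.138 over the 34 members. It was 0.189 over 9054 tested genes in the same range of levels, and 28 members lay below the latter. That range ran from 3.36 log2 CPM, the level of Psmd10, to 7.56, that of Psmd2. Genes were not matched to members in level within it, and the part of level in the difference was not tested. Psmd2 was the steadiest member (0.0742), with 198, 181, 166 and 169 CPM in naive, 196, 199, 190 and 191 in pre, 191, 191, 186 and 199.5 at onset, and 199.97 at peak. Psmb5, at 0.393, was the least steady, followed by Psma4 at 0.246. The spread between replicates of Psmb5 exceeded each of its fitted log2 fold changes apart from that at the peak.

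**Figure D5:**
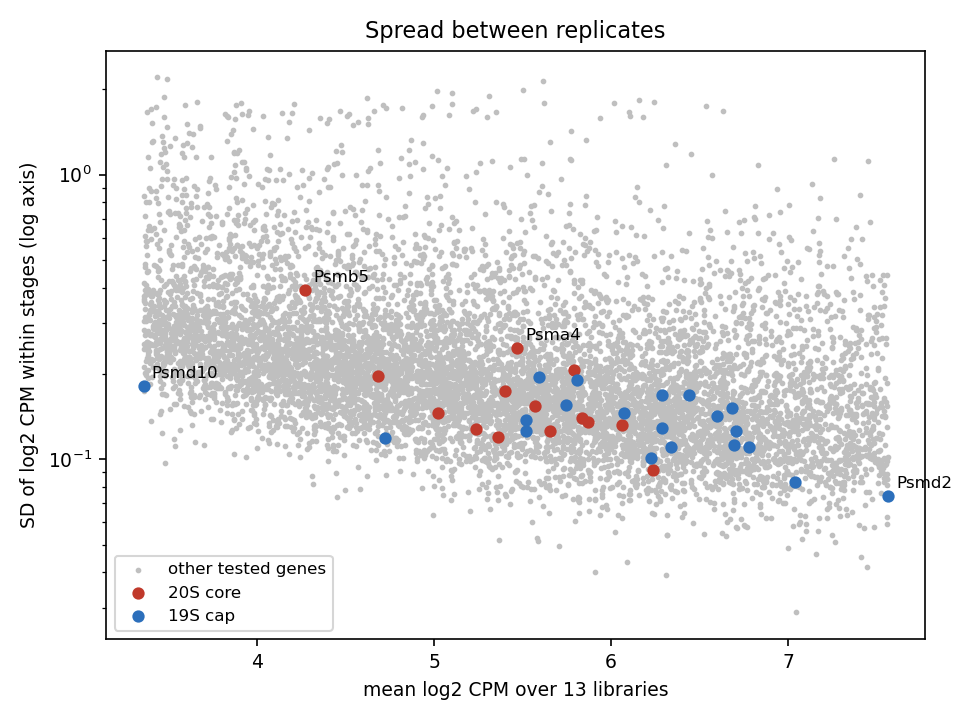
SD of log2 CPM within stages (y axis, log scale) against mean log2 CPM over 13 libraries (x axis), for tested genes in the level range of the members (grey), core genes (red) and cap genes (blue). Of the 34 members, 28 lie below the median of the grey genes (0.189), and Psmb5 (0.393) lies above it.

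Between libraries the members varied in step. Over the 13 libraries the median Pearson r between 2 members was 0.44 (561 pairs, 518 above 0), against 0.0016 between pairs of genes in the same range of levels. It was 0.40 within the core, 0.46 within the cap and 0.44 between core and cap, so the median across both parts lay between those within each. Psmd2 and Psmd7 were the most alike pair (0.93), and Psmb3 and Psmd13 the least (-0.69). With the mean of the other members, Psmb4 had the highest r (0.90), followed by Psma5 (0.87) and Psmd7 (0.86). Psma3 (0.03) and Psmd13 (0.11) followed the others least, and these were the members with the lowest fold changes in pre and at the peak. The points share library, stage, depth and cell make-up, and no p is given.

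Levels can be compared between genes per length of exon, here in CPM per kilobase of exon averaged over the 13 libraries. Among core genes Psmb4 was highest (38.6) and Psmb1 lowest (9.16), a ratio of 4.21. The proteolytic genes lay between, with 30.4 for Psmb6, 21.7 for Psmb5 and 14.7 for Psmb7. In the alpha ring Psma6 was highest (38.3) and Psma1 lowest (12.7). In the cap the ATPase Psmc5 was highest (75.0) and the chaperone Psmd9 lowest (3.60), a ratio of 20.8, with 6.82 for Psmd10. The ATPases ended at 15.5 (Psmc2). The base ran from 46.8 (Psmd2) to 18.1 (Psmd1), and the lid from 34.5 (Psmd7) to 11.7 (Psmd11). Exon length counts every annotated transcript end, and per kilobase of coding sequence the ratio was 3.86 in the core and 5.94 in the cap. On that scale Psmb5 was the lowest core gene (24.6), below Psmb7 (60.5) and Psmb6 (79.6). The order of the proteolytic genes thus depends on the length used. Other extremes changed as well. Per coding kilobase Psmd10 was the lowest cap gene (14.4) while Psmd9 stood at 39.2, and the alpha ring ran from Psma7 (89.6) to Psma5 (44.7).

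Of 34 other genes of the pathway that were looked for, 33 were in the table and 31 were tested. None passed the test. Against naive, 21 were fitted higher in pre, 25 at onset and 22 at peak. With the mean of the 34 members over the 13 libraries, Psme1 (a subunit of the PA28 activator), Pomp (the core maturation factor), Ufd1 (a cofactor of the unfoldase Vcp), Ubb (a polyubiquitin gene) and Sem1 (a small cap subunit) had r of 0.78, 0.77, 0.76, 0.73 and 0.72. Among the genes of transcriptional control, Nfe2l1 had an r of 0.44, Nfe2l2 of -0.27, and Ddi2 and Ngly1, whose products process Nfe2l1 protein, of -0.35 and 0.15. Ecpas, whose product is known as a proteasome adaptor and scaffold, had an r of -0.84, and Psme4, the PA200 activator, -0.60.

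A few of these genes are given although they were chosen after their values were seen. Of the 31 tested, 1 (3.23%) had all pre libraries above naive, and 1 (3.23%) had all onset libraries above naive. Over all tested genes, 1.36% had all pre libraries higher than naive and 1.62% all lower. For onset these shares were 1.39% and 1.69%. The peak library lay above all naive libraries for 17 of the 31 (54.8%) and below all of them for 3 (9.68%), Ddi2 among the latter. Over all tested genes these peak shares were 21.8% and 22.6%, and each rests on 1 library. In onset against pre, 4 (12.9%) had all onset libraries higher and 0 all lower, against 1.98% and 2.48% of tested genes. Adrm1, a ubiquitin receptor of the cap outside the symbol rule, stood at 26.4 to 31.1 CPM in naive and 33.5 to 39.8 in pre, which did not overlap, with a log2 fold change of 0.31 ± 0.10 (SE, adjusted p = 0.807 in edgeR). Sem1 stood at 20.5 to 25.0 CPM in naive and 26.0 to 30.7 at onset, which did not overlap, with a log2 fold change of 0.23 ± 0.11 (SE, adjusted p = 0.813 in edgeR). Ddi2, the protease that activates Nfe2l1 protein, stood at 30.5, 26.3, 32.9 and 28.5 CPM in naive and 17.0 at the peak, a log2 fold change of -0.80 ± 0.20 (SE, adjusted p = 0.167 in edgeR). The peak value of Ddi2 was the lowest of the 13 libraries, while the other stages overlapped with naive.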

How the data were processed

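RNA sequencing of 13 libraries (4 naive, 4 pre, 4 onset, 1 peak) was read from the authors' deposited table of raw counts, 1 line per gene symbol, with 40840 genes. Per the submitters' processing notes, cutadapt, HISAT2, HTSeq and DESeq2 were used. Their versions and roles, the genome build, the annotation and the strand setting are not given in the sources used here. The 5 summary lines of the table were left out of library sizes, and the line of reads outside any gene made up 22.8% to 27.6% of the reads listed. Groups came from the labels.

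Tests used edgeR 4.0.16 (R 4.3.3) with TMM factors, filterByExpr by group (minimum count 10), 1 robust quasi-likelihood fit over the 13 libraries and two-sided F tests, adjusted over 14893 genes with a threshold of 0.05. The common biological coefficient of variation was 0.220, and the lone library of the peak borrowed its spread from the other stages. The F test gives no SE, so each SE is the absolute log2 fold change divided by the square root of F. It need not match the p of a gene. CPM are TMM-scaled, and log2 CPM used a prior count of 2. Levels per kilobase used the merged exons or the coding length of GENCODE M21, which may not be the annotation the counts were made with. Pseudogenes of Psmb5, Psmb6 and Psmb7 exist in that annotation, and reads shared with them could have been lost in counting. Promoters came from RefSeq on GRCm38.p6. The edgeR test was checked on simulated counts for onset against naive only, with larger changes than those fitted for the members there. The peak comparison and the scores, levels per length, correlations and motifs were not checked in that way.

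Members named with values are the 3 proteolytic genes, the member with the smallest p per role class and stage against naive, the extremes of fold change per comparison, and the extremes of level per length in each class. The members, gene lists and rule were chosen with earlier results of these data known. Alternatives were DESeq2 1.42.0, voom of limma 3.58.1 with quality weights, other scaling factors, no low-count filter, pairs of groups alone, a replicate block, a rod index covariate, a lowess correction for exon length (span 0.3) and fits without single libraries, the 4 libraries of highest rod index or the peak library. Deviations from the group means correlated across genes between same-numbered naive and pre libraries (r = 0.27, 0.19 and 0.29), all over the limit of 0.1 taken to pair them, but not between naive and onset (-0.01, -0.06 and -0.04) or in every pair of pre and onset (-0.20, 0.25, 0.17 and -0.39).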

Additional observations from a re-analysis of the deposited data

Results flagged for a closer look

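In groups of 4 libraries, single values far from the other 3 were looked for in the level of each member and in the summed and mean levels. Of 111 groups, 6 held one, where chance gives about 1 in 20.

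Psma2, an alpha ring gene, stood at 72.0 CPM in naive 1, far above the other naive libraries (48.8 to 50.3). Psmb7, the trypsin-like subunit, stood at 56.3 CPM in naive 1, above 43.2 to 43.8 in the others. Psmd14, the deubiquitinase of the lid, stood at 70.7 CPM in naive 1, above 49.6 to 52.3 in the others. Onset 4 held the remaining values. There Psma3 stood at 64.9 CPM (other onset libraries 55.3 to 56.1), Psma4 at 50.3 CPM (40.5 to 41.3), and the summed level of the 14 core genes at 693 CPM (651 to 658).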

How the results depend on the processing

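No member was called under any of the alternatives run, and 983 of 997 alternative values kept their direction and side of the threshold or, where there was no test, moved by less than the spread between naive libraries or by under 1.5 times for counts. For the median fold change of the members that spread was 0.128, above their pre and onset medians. A median could thus turn sign and still count as kept, as in pre without the 4 libraries of highest rod index. The tally also includes fits without a library of a stage outside the comparison, and calls of 0 members against 0. Such values could hardly change, so the tally is not a measure of stability. Core minus cap, set against naive, ran from -0.0212 to 0.0843 over the alternatives in pre and from -0.0188 to 0.0298 at onset. Calls over all genes did vary. In edgeR 0 genes passed for pre, 0 for onset and 0 for onset against pre, where DESeq2 called 6, 17 and 22, and the rod index as a covariate called 95, 1 and 0. At the peak edgeR called 24 genes, DESeq2 280, voom 99, the rod covariate 99 and the fit without the 4 libraries of highest rod index 140, while removal of the length trend left 1 and the replicate block 0. Leaving out single libraries gave 6 to 25 at the peak. Of 10 signs of single-gene fold changes that turned, 6 did so without the 4 libraries of highest rod index, which leaves naive at 2 libraries. Then 13 members (21 with all libraries) were fitted higher in pre, with a median log2 fold change of -0.05 (0.05), and 19 (30) at onset. The log2 fold changes turned to -0.0916 for Psmb5 in pre, and at onset to 0.0656 for Psma3, -0.0580 for Psmb5, -0.0474 for Psmb6, -0.00437 for Psmb7 and -0.0127 for Psmd7. Psmb6 at onset was -0.000173 once the length trend was removed. With single libraries left out Psmb6 ran from -0.106 to 0.0197 in pre, positive without naive 1, and from -0.0124 to 0.111 at onset, negative without naive 5. The members fitted higher then numbered 18 to 28 in pre, 26 to 32 at onset and 32 to 33 at the peak. The replicate block matched libraries by number in every stage, although only naive and pre passed the limit for pairing throughout. Naive 5 has no same-numbered library, so it did not inform the fold changes there. The block turned Psmb5 in pre to -0.000847 and changed no call of a member. In that block 18, 29 and 30 members were fitted higher in pre, onset and peak, and 0, 0 and 4 had an unadjusted p under 0.05 in edgeR (2, 3 and 4 without it). Taken as a median over members, core minus cap was 0.0843 higher in pre than in naive (0.0152 as a mean). The highest over the lowest cap gene per length was 5.94 by coding length and 20.8 by exon length. The causes of these changes were not tested. Depth limits Psmd10 most, the member with the fewest counts, and floors cover counting error only.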

Other observations

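Outside the pathway, genes were ranked by their Pearson r with the mean level of the 34 members over the 13 libraries, as a description made after the data had been seen. Of 9930 genes ranked, those with the highest r were Rab5a (0.92), a GTPase of early endosomes, Akr1a1 (0.92), an aldehyde reductase, Timm13 (0.91), a chaperone of mitochondrial protein import, Map1lc3b (0.91), the autophagosome protein LC3B, and Syp (0.91), the synaptic vesicle protein synaptophysin. Rab5a and Akr1a1 were at their highest in naive 1, as 7 of the members were. Syp ran from 881 to 1141 CPM and Map1lc3b from 81.0 to 121.6 CPM over the libraries. The points share library, stage, depth and cell make-up.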
